A study of Homo sapiens with 6 samples.

Results

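MIR17HG is a long non-coding RNA gene on chromosome 13 whose transcript carries the 6 hairpins of the miR-17-92 cluster. The 7 genes described here, the host MIR17HG and the microRNA genes MIR17, MIR18A, MIR19A, MIR20A, MIR19B1 and MIR92A1, were taken by symbol from tables of 12438 genes. They have 8 of the 22442 deposited entries, since MIR17HG has 2 entries with identical values (NR_027349 and NR_027350). The cluster was chosen by the gene body values of MIR92A1 and MIR19B1, already known to be among the lowest with A771726 relative to DMSO (ranks 21 and 22 from the lowest of 8706 genes). The A771726 values of all 7 genes are therefore a description without a test.

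GRO-seq, or global run-on sequencing, reads RNA that polymerases already on a gene go on making when nuclei are given labelled nucleotides. The cells were A375, an established human malignant melanoma line. Cultures received DMSO (the solvent), leflunomide at 25 µM or A771726 at 25 µM over 48 h, and each of these groups has 2 samples, 6 in all. A771726, or teriflunomide, is the active metabolite of leflunomide, formed when the isoxazole ring of that prodrug opens. This metabolite inhibits dihydroorotate dehydrogenase, the mitochondrial enzyme of pyrimidine synthesis. Of 9 melanocyte markers 5 were measured and 4 passed the filter on low values. In DMSO the lineage factor SOX10 had a gene body density of 0.329, PAX3 0.03985, MITF 0.0123 and PMEL 0.01035. The melanocyte marker MLANA (0.01515 in DMSO) was below that filter, as were the endothelial marker PECAM1 (0.0055) and the fibroblast marker COL1A1 (0.00375). TYR, DCT, TYRP1 and S100B had no values, nor did PTPRC of leukocytes and EPCAM of epithelium. The labels say that treatment was done in duplicate, not whether on separate days or passages, so p-values measure only the spread between these samples, which may be technical. All cells of a culture were pooled in a sample, so fewer transcribing cells and less transcription per cell cannot be told apart.

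The primary transcript of MIR17HG is cut in the nucleus by the Drosha and DGCR8 complex, which releases each hairpin, and Dicer then makes the mature microRNAs in the cytoplasm. The cluster is known as an oncogenic one: it is amplified or raised in several cancers, and its products repress cell cycle inhibitors and the pro-apoptotic gene BCL2L11. GRO-seq reads report polymerase on the primary transcript and not the mature microRNAs. The mature sequences show which products the measured hairpins give. They are printed 5′ to 3′ from RefSeq (GRCh38.p14, plus strand of chromosome 13), with the seed, bases 2 to 8, in capitals.
miR-17-5p: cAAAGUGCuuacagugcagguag
miR-20a-5p: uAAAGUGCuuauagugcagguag
miR-18a-5p: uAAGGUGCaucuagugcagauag
miR-19a-3p: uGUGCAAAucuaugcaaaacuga
miR-19b-3p: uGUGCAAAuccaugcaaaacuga
miR-92a-3p: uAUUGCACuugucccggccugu

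The 6 genes thus give 4 seeds, with MIR17 and MIR20A sharing AAAGUGC and MIR19A and MIR19B1 sharing GUGCAAA. MIR18A (AAGGUGC) and MIR92A1 (AUUGCAC) each stand alone within the cluster. In RefSeq, 8 human mature microRNAs carry the seed of miR-17-5p, among them miR-93-5p and miR-106b-5p of the miR-106b-25 cluster, and 6 carry that of miR-92a-3p, among them miR-25-3p of the same paralogous cluster. The miR-19 seed occurs in 2 human mature microRNAs, both from this gene family.

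The hairpins lie close together. On GRCh38.p14 the MIR17 hairpin is at chr13:91350605-91350688 and the MIR92A1 hairpin at chr13:91351314-91351391, so the first and last hairpin starts are 709 bases apart. In GENCODE 29 all 6 hairpins are intronic in the spliced transcript MIR17HG-201 and exonic in MIR17HG-202 and MIR17HG-203, between 2785 and 3494 bases after the host start. The deposited values use hg18, and no coordinates were converted.

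Each deposited density is the authors' mean for a group, as is the traveling ratio, the promoter density over the gene body density. The densities of single libraries were solved from these 3 means for all 6 microRNA genes in all groups, and for MIR17HG in DMSO alone, because its promoter mean was 0 with both compounds. Within a group the libraries are called 1 and 2 by the value of 1 read, without a link to the replicate letters of the labels. For MIR19A with leflunomide it is not known which value belongs to which library.

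The value of 1 read also shows what the windows are. In all 6 libraries, 1 promoter read was worth what a window of 600 bases gives, and the gene body densities of short non-coding genes were multiples of 1 read over the gene length plus 2700 bases (between 82.5% and 95.2% of values, to within 6e-05 in density, and at most 0.342% once values were moved off the read grid). The gene body window of MIR17 is thus 2784 bases long for a hairpin of 84 bases, most of it host transcript outside the hairpin. Windows of this length set at the same place relative to each gene share 74.5% of their bases between MIR17 and MIR92A1 and 95.6% between MIR19B1 and MIR92A1. The 6 microRNA genes are therefore overlapping views of 1 stretch of the host transcript and not 6 separate measurements. The promoter windows of the microRNA genes, if set at the start of each gene, likewise lie inside the host transcript and not at its start.

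In DMSO the locus was among the denser genes. MIR17HG had a mean gene body density of 0.166, with 0.194 in library 1 (70 reads) and 0.139 in library 2 (42 reads). The microRNA windows lay between 0.181 for MIR20A and 0.208 for MIR19A, which puts them between the 94.3 and 95.3 percentile of 8706 genes past the filter. In library 1 the 6 microRNA windows ranged from 0.192 (MIR20A) to 0.237 (MIR18A), and in library 2 from 0.155 (MIR18A) to 0.202 (MIR17). Every microRNA window was denser in library 1 than in library 2, and their order differed between the libraries, so neighbouring genes in this order do not differ beyond their spread. Relative to the host the microRNA windows had 1.08 (MIR20A) to 1.25 (MIR19A) times its mean density. By library this ran from 0.988 (MIR20A) to 1.22 (MIR18A) in library 1 and from 1.12 (MIR18A) to 1.46 (MIR17) in library 2.

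With A771726 the microRNA windows were far lower than in DMSO, and the host gene less so. MIR92A1, the last hairpin of the cluster, had DMSO gene body densities of 0.208 (library 1, 22 reads) and 0.168 (library 2, 15 reads). Its leflunomide libraries gave 0.128 (17 reads) and 0.0893 (11 reads), and its A771726 libraries 0.0156 and 0.0203 (3 reads each). The 3 groups do not overlap, but the share of all genes with this order was not computed. For pairs of groups it was 21.7% (leflunomide below DMSO), 55.1% (A771726 below DMSO) and 55.3% (A771726 below leflunomide) of solved genes. The DMSO mean was 10.5 times the A771726 mean, a log2 change of −3.24 on the scale of log2(density + 0.0022).

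MIR19B1, which gives miR-19b, lies next to MIR92A1 and had nearly the same values. DMSO libraries 1 and 2 gave 0.198 and 0.168, leflunomide libraries 0.127 and 0.0835, and A771726 libraries 0.0155 and 0.0202 from 3 reads each, a log2 change of −3.21. Over both libraries 36 reads in DMSO (exact Poisson 95% interval 25.2 to 49.8) stand against 6 with A771726 (2.20 to 13.1). A read was worth less with A771726, and the DMSO mean density was 10.2 times the A771726 mean. The Poisson intervals cover counting error only, and reads amplified by PCR are not all independent molecules. A771726 library 2 had 3 reads in each of the 6 microRNA windows, which overlap, so these can be the same reads and are not 6 observations.

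The windows of the 4 upstream microRNA genes had more reads in A771726 library 1. MIR17, MIR18A and MIR19A each had 9 reads there and MIR20A had 7, against 3 for MIR19B1 and MIR92A1. For MIR17 this gives A771726 densities of 0.0467 and 0.0202, where DMSO libraries had 0.207 and 0.202 and leflunomide libraries 0.194 and 0.186. For MIR20A it gives 0.037 and 0.0203 against 0.192 and 0.169 in DMSO. In the other A771726 library no such step along the cluster is seen, so the step rests on a few reads of library 1. The log2 changes of the 4 genes lay between −2.47 (MIR18A) and −2.57 (MIR20A), and without A771726 library 1 between −3.02 (MIR20A) and −3.23 (MIR19A).

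**Figure D1:**
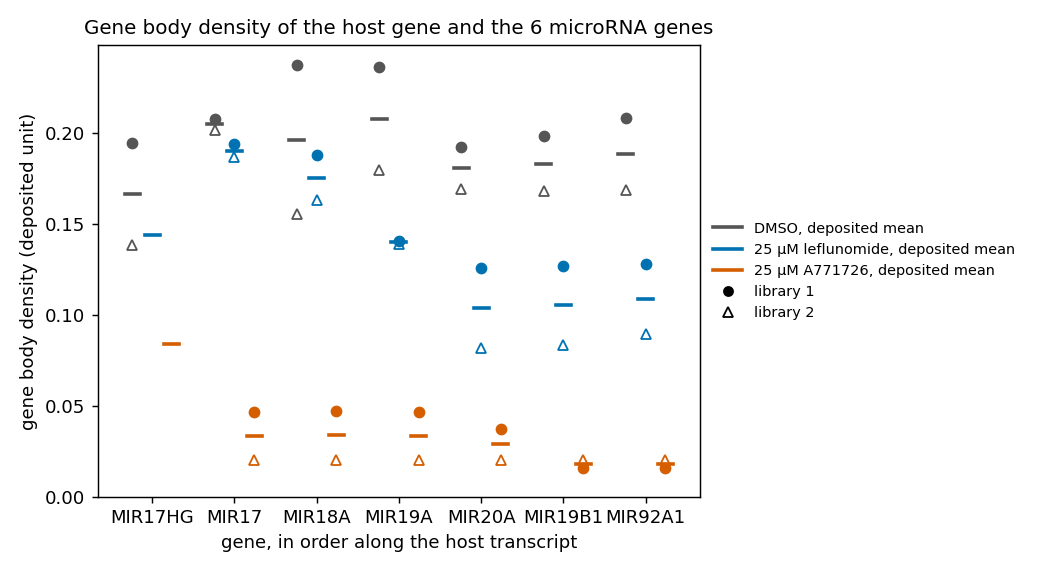
Gene body density (y axis, deposited unit) of MIR17HG and the 6 microRNA genes (x axis, in order along the transcript) in DMSO, leflunomide and A771726. Short horizontal lines are the authors' group means, filled circles and open triangles libraries 1 and 2 solved from them, which MIR17HG has in DMSO alone and which are in no known order for MIR19A with leflunomide. All 12 A771726 points of the microRNA genes lie at or below 0.0469, under every DMSO and leflunomide point.

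For MIR17HG itself the DMSO mean of 0.166 compares with 0.144 under leflunomide, a log2 change of −0.21, and 0.084 under A771726, a log2 change of −0.97. Relative to the median gene (−0.06 and −0.52) the host had −0.15 and −0.45. The A771726 mean of the host stands for between 84.6 and 110 reads in the 2 libraries together, depending on how it divides between them. The host value thus rests on many more reads than the microRNA windows do.

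With A771726 the gene body mean was 2-fold or more below DMSO at 6 of the 7 genes, the 6 microRNA genes, against 18.5% of the 8706 genes, and 2-fold or more above it at 0 (0.839% of genes). Their median log2 change was −2.56, and −2.04 relative to the median gene. In all 6 both A771726 libraries lay below both DMSO libraries, which was so at 55.1% of the genes solved in both groups. Nothing is read from these shares, since the contrast chose the cluster. The other 327 microRNA genes past the filter had a median log2 change of −0.63, and 34.9% of them were at least 2-fold lower.

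Set against the host, the microRNA windows held a smaller part of its density in the A771726 means. MIR17 had 1.23 times the host density in DMSO, 1.32 times with leflunomide and 0.398 times with A771726. MIR92A1 had 1.13, 0.755 and 0.214 times the host density in the same order. Over the 6 microRNA genes the quotient had a median log2 change of −1.66 with A771726 and −0.47 with leflunomide, and no test was made of either. Without A771726 library 1 of the microRNA genes the first median was −2.25 and without library 2 −1.23.

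If the MIR17 window lies inside the host window, the rest of the host window can be computed. Its DMSO density was 0.151, against 0.124 for leflunomide and 0.105 for A771726. With the MIR92A1 window taken out in its place the rest had 0.157, 0.158 and 0.111, so the lower leflunomide value depends on the window chosen. The A771726 value of the rest lies above the 0.084 of the host as a whole and the 0.0335 of the MIR17 window. It has to, since a window below the host mean was taken out, so this is not a separate observation. Where the windows lie is not given in the sources used here, and the host length of 6760 bases was taken from GENCODE 29.

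The same difference was computed for other microRNA genes with host genes. Over 22 microRNA genes in 16 other hosts, the log2 change of the microRNA gene minus that of its host had a median of 0.04 with A771726, a lowest value of −1.45 (MIR210 in MIR210HG) and a highest of 1.97 (MIR1204 in PVT1). The 6 miR-17-92 genes had differences from −1.56 (MIR18A) to −2.40 (MIR92A1), but the A771726 values of MIR92A1 and MIR19B1 chose the cluster, so nothing is read from their place below the other pairs. With leflunomide the other pairs had a median of 0.15, with the lowest at −1.68 (MIR103A1 in PANK3), and the miR-17-92 genes lay between −0.59 (MIR20A) and 0.11 (MIR17), inside that range. The 6 genes share reads, so this is 1 locus beside 16 hosts.

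**Figure D2:**
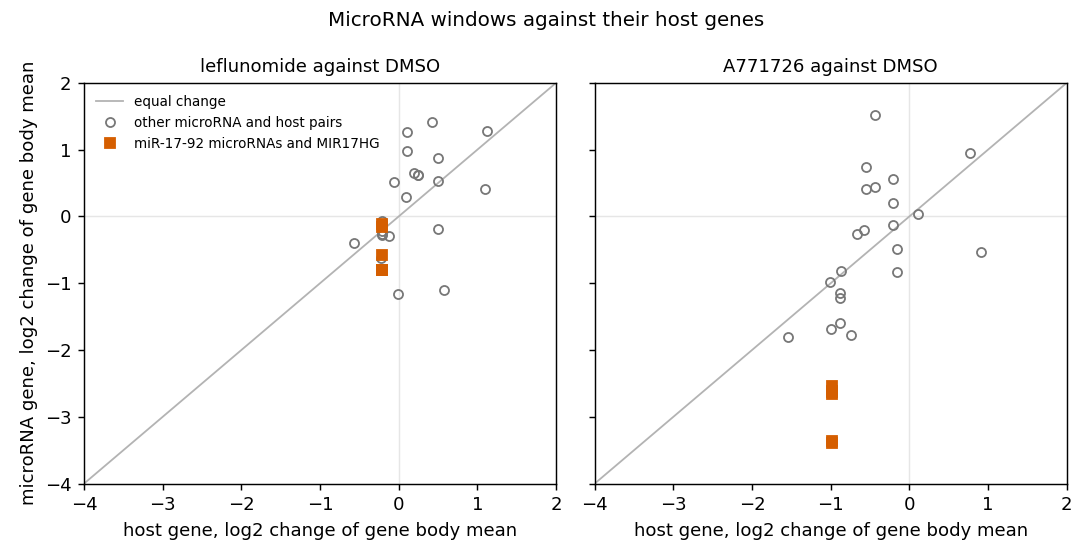
Log2 change of the gene body mean of a microRNA gene (y axis) against that of its host gene (x axis), without a pseudocount, for leflunomide (left) and A771726 (right) against DMSO. Orange squares are the 6 miR-17-92 genes with MIR17HG and grey circles 22 other pairs, the line marks equal change, and with A771726 all 6 squares lie far below the line.

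With leflunomide the gene body values were lower in the windows of the downstream hairpins and near DMSO in those of the upstream ones. The MIR20A densities of 0.126 and 0.0814 compare with 0.192 and 0.169 in DMSO, a log2 change of −0.79, and MIR19B1 and MIR92A1 had −0.79 and −0.78. MIR19A had 0.141 and 0.139 against 0.236 and 0.179, a log2 change of −0.56. The first hairpins MIR17 (−0.11) and MIR18A (−0.16) had means closer to DMSO, and at MIR18A the leflunomide libraries (0.188 and 0.163) overlapped those of DMSO (0.237 and 0.155).

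Both leflunomide libraries lay below both DMSO libraries at 5 of the 6 microRNA genes, all but MIR18A, against 21.7% of genes solved in both groups. Of the 7 genes 0 reached 2-fold in either direction, against 4.49% of all genes lower and 1.84% higher, and 3 were lower by that much without leflunomide library 1. The DMSO libraries are shared with the contrast that chose the cluster, so the lower leflunomide values are not independent of that choice.

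In the fit of limma, a linear model with spread shared across genes, on 4888 genes solved in all 6 libraries, 0 of the 6 microRNA genes were called at an adjusted p of 0.05. At an unadjusted p under 0.05 there were also 0 of the 6, and over all genes limma called 0% after adjustment and 4.6% had an unadjusted p under 0.05. For MIR92A1 the limma log2 change was −0.80 (95% interval −1.60 to 0.01, unadjusted p = 0.0519, adjusted p = 0.9995). For MIR17 it was −0.11 (−1.04 to 0.83, limma adjusted p = 0.9995). The spread in this fit comes from the libraries of all 3 groups, those of A771726 with their few reads included. It is not the spread of the DMSO and leflunomide libraries alone. The interval of MIR92A1 includes 0, so a difference beyond the spread of this fit was not shown. Over the alternatives tried the limma adjusted p of MIR92A1 ran from 0.870 to 0.9998.

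Between the compounds at the same dose and time, 1 pair, A771726 was lower at all 6 microRNA genes, with both libraries below both leflunomide libraries (55.3% of genes) and at least 2-fold lower means at all 6 (12.4% of 8706 genes, and 1.03% at least 2-fold higher). MIR17 had a log2 difference of −2.43, MIR92A1 −2.46 and MIR20A −1.78, with a median of −1.89 over the 6 genes relative to the median gene. The host had −0.76, or −0.29 relative to the median gene. The pair shares the A771726 libraries with the contrast that chose the cluster, so the difference is a description with no test.

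The promoter windows of the microRNA genes, 600 bases each, showed another order of the groups: leflunomide highest and A771726 lowest at the downstream hairpins. Promoter and gene body windows of neighbouring hairpins can share reads. In 74 of 74 comparisons of an upstream with a downstream hairpin in 1 library, the gene body reads lost downstream were at most the promoter reads of the downstream hairpin. Comparisons without a loss meet this whatever the promoter holds, as in A771726 library 2 with 3 gene body reads in every window. The comparisons also reuse reads, so nothing is read from this count. With leflunomide MIR17 had 49 gene body reads over both libraries and MIR92A1 28, with 23 promoter reads at MIR92A1. The lower gene body, higher promoter and higher ratio downstream can thus come from the same reads and are not separate observations. For MIR20A the DMSO libraries gave 0.250 and 0.312 (6 reads each), the leflunomide libraries 0.451 and 0.489 (13 reads each) and the A771726 libraries 0.0933 (4 reads) and 0. For MIR19B1 the DMSO libraries gave 0.263 and 0.312, the leflunomide libraries 0.386 and 0.489 and the A771726 libraries 0.150 and 0. At both genes the 3 groups do not overlap. The share of all genes with 3 separate groups was not computed, and the shares for pairs of groups are given below.

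For MIR92A1 the DMSO libraries gave 0.249 and 0.156, the leflunomide libraries 0.379 and 0.434 and the A771726 libraries 0.144 and 0. Its groups do not overlap either, but library 1 of A771726 (6 reads) is close to DMSO library 2 (3 reads of larger value). At MIR17, the first hairpin, the order was different: the DMSO libraries gave 0 and 0.104, leflunomide 0.176 and 0.112, and A771726 0.0962 and 0.0626. At MIR18A and MIR19A the DMSO libraries spread from 0.0438 to 0.349 and from 0.0438 to 0.304, and both compounds overlapped them.

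Both leflunomide libraries lay above both DMSO libraries in 4 of the 6 promoter windows (MIR17, MIR20A, MIR19B1 and MIR92A1), against 16.1% of solved genes. The means were at least 2-fold higher in 1 of the 6 (MIR17), against 30.6% of 8838 genes, and lower by as much in 0 (16% of genes). The median log2 change over the 6 windows was 0.71, and 0.50 relative to the median gene. With A771726, 5 of the 6 had means lower by 2-fold or more, against 26% of genes, and 0 higher (20.8%), but both libraries lay below DMSO in 3 (MIR20A, MIR19B1 and MIR92A1; 16.4% of solved genes). Between the compounds all 6 windows had both A771726 libraries below both leflunomide libraries (21.9% of solved genes). The means were at least 2-fold lower in 4 (30.6% of genes) and higher in 0 (13.5%). Without A771726 library 2 only 2 windows were at least 2-fold lower than DMSO, and all these windows hold 13 reads or fewer per library.

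**Figure D3:**
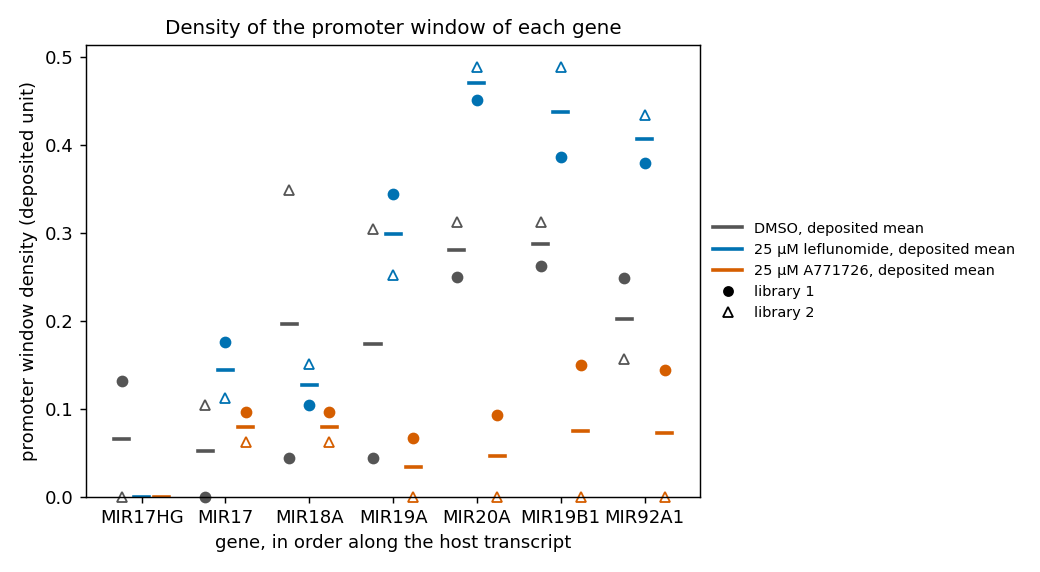
Density of the promoter window (y axis, deposited unit) of MIR17HG and each microRNA gene (x axis), with short horizontal lines for the authors' group means and points for the solved libraries. From MIR20A on, the leflunomide points (0.379 to 0.489) lie above the DMSO points and the A771726 points at or below 0.150.

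The promoter window of the host had a mean of 0.0657 in DMSO, from 3 reads in library 1 and 0 in library 2, and a mean of 0 with both compounds. A count of 0 allows up to 3 reads in a library, so no difference at the host promoter was detectable at this depth and no fold is given. Its traveling ratio was accordingly 0.338 in DMSO and is listed at 0 with the compounds.

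The traveling ratio, read at most genes as a measure of pausing near the start, compares 2 stretches of the host transcript at these hairpins. For MIR92A1 the mean ratio was 1.06 in DMSO (libraries 1.20 and 0.926), against 3.91 for leflunomide (2.97 and 4.86) and 4.63 for A771726 (9.25 and 0). The A771726 mean thus comes from library 1 alone, with 6 promoter reads over 3 gene body reads. For MIR20A it was 1.57 in DMSO (1.30 and 1.85), against 4.79 for leflunomide (3.58 and 6.00) and 1.26 for A771726 (2.52 and 0). With leflunomide both libraries of both genes lay above DMSO, as they did at MIR17, MIR19A and MIR19B1. At MIR18A the leflunomide libraries (0.555 and 0.924) lay between those of DMSO (0.185 and 2.25). The share of all genes with such an order of ratios was not computed, so nothing is read from it.

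With leflunomide 5 of the 6 ratios were at least 2-fold higher, all but MIR18A, against 27.9% of 5173 genes, and with A771726 4 of 6, against 34.6%. In neither case was a ratio lower by as much (15.3% and 17.1% of genes). Relative to the median gene the counts of higher ratios were 4 and 3, while the shares given are not centred. Of the 4 with A771726, MIR19B1 (9.69 and 0) and MIR92A1 (9.25 and 0) had a ratio of 0 in library 2. Between the compounds A771726 was at least 2-fold higher at 2 (26.9% of genes) and lower at 2 (20.9%). In the authors' deposited table the folds over DMSO ran from 0.608 (MIR18A) to 3.69 (MIR92A1) with leflunomide and from 0.761 (MIR19A) to 10.0 (MIR17) with A771726. The fold of MIR17 with A771726 sets a promoter mean of 0.0794 (6 reads) against 0.052 in DMSO (2 reads of larger value) over a lower gene body. Relative to the median gene, which lay at 0.27 and 0.42, the median log2 change of the 6 ratios was 1.24 with leflunomide and 0.92 with A771726.

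The paralogous miR-106b-25 cluster lies in an intron of MCM7, a gene of the replicative helicase, and was as dense as miR-17-92 in DMSO: 0.210 for MIR106B, 0.210 for MIR93 and 0.230 for MIR25. The A771726 means of all 3 were at least 2-fold lower (0.0955, 0.0904 and 0.0764, log2 changes of −1.12, −1.19 and −1.56), against 18.5% of all genes, and MCM7 had −0.86. This rests on 1 library of each gene: the A771726 libraries gave 0.150 and 0.0405 for MIR106B, 0.140 and 0.0405 for MIR93 and 0.119 and 0.0337 for MIR25. Without the lower one the log2 changes were −0.48, −0.57 and −0.94, and the count was 0 in place of 3. The windows of these hairpins of 1 intron can share reads, so the 3 genes are not separate observations. Without a pseudocount the log2 change of the hairpin minus that of MCM7 was −0.26 for MIR106B, −0.33 for MIR93 and −0.71 for MIR25, and the difference from miR-17-92 was not tested. With leflunomide none of the 4 reached 2-fold (−0.07 for MIR93 to −0.26 for MIR25), against 4.49% of all genes lower and 1.84% higher. The median over the 4 genes was −1.16 with A771726, against −0.52 for all genes.

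Of the 6 transcription factors listed for the host promoter 4 were measured, and MYC and MYCN were not among them. E2F1, an activator of the cluster that its microRNAs in turn repress, had a DMSO gene body density of 0.0495 and log2 changes of −0.51 for leflunomide and −0.62 for A771726. The same changes were 0.55 and 0.13 for E2F2 and 0.08 and −0.45 for E2F3, and leaving out 1 library turned the sign of the A771726 change of both genes, to −0.06 for E2F2 without the higher A771726 library and 0.02 for E2F3 without the higher DMSO library. With the pseudocount 0 of the 4 factors were 2-fold higher or lower with either compound. Of all genes 4.49% were lower and 1.84% higher by as much with leflunomide, and 18.5% and 0.839% with A771726, so nothing is read from this count. MAX, a dimer partner of E-box factors, named here after its values were seen, was at the threshold: its means were 0.0293 for DMSO and 0.0135 for A771726, 2.16 times lower without a pseudocount, which makes the count 1. The list median was −0.21 with leflunomide and −0.53 with A771726.

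Of the microRNA processing genes 11 passed the filter, and 0 were 2-fold higher or lower with either compound. Of all genes 4.49% were lower and 1.84% higher by as much with leflunomide, and 18.5% and 0.839% with A771726. Nothing is read from a count of 0 in so short a list. DGCR8, the partner of Drosha, had −0.00 and −0.62, and DICER1, which cuts the exported hairpins, had 0.46 and −0.04. The list median was 0.02 with leflunomide and −0.40 with A771726.

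Of the listed targets of the cluster 11 passed the filter, and with the pseudocount 0 were at least 2-fold higher with either compound. Of all genes 1.84% were with leflunomide and 0.839% with A771726, so nothing is read from this count. Without the pseudocount the count with leflunomide was 1: TNFAIP3, an inhibitor of NF-kappa-B signalling, named here after its values were seen, had 2.08 times its DMSO mean. CDKN1A, the cell cycle inhibitor p21, had 0.63 with leflunomide and 0.43 with A771726, and the pro-apoptotic BCL2L11 had −0.42 and −0.23. The DMSO libraries of BCL2L11 were 0.0198 and 0.0029, with all 4 libraries of the compounds between them, and without the higher one the changes were 0.99 and 1.18, of opposite sign. THBS1, an inhibitor of angiogenesis, was more than 2-fold lower in the A771726 mean (−1.13), but had −0.78 without the higher DMSO library. It was the 1 target at least 2-fold lower with A771726, against 18.5% of all genes. The list medians were 0.06 and −0.27. Nascent transcription does not show repression by microRNAs, which acts on mature transcripts.

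The genes with the most similar pair of log2 gene body changes were FAM46B (−0.59 with leflunomide and −2.44 with A771726), LOC643988 (−0.66 and −2.48), KBTBD7 (−0.57 and −2.71), MIR144 (−0.59 and −2.71) and MIR451 (−0.59 and −2.72). Likeness was the distance to the median of the 7 genes (−0.56 and −2.56) over these 2 changes among 8706 genes. For FAM46B the DMSO density was 0.068, against 0.0445 for leflunomide and 0.0107 for A771726. With A771726 the densities of the other 4 were at most 0.00375, below those of the miR-17-92 windows, and MIR144 and MIR451 lie in 1 cluster.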

How the data were processed

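Per the file headers, the deposited values are group means: promoter and gene body read densities in an unnamed unit, and the authors' traveling ratio with its fold over DMSO. The headers spell A771726 with 2 digits exchanged. The submitters' processing notes name hg18, Bowtie 0.12.9 and bedtools; the sources used here give no window limits, scaling or library depths.

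The members, lists and tests were chosen with earlier results of these data known. Where a symbol had several entries, the one densest in the gene body was used. The filter on low values was the 30th percentile of the mean over groups (8706 genes passed for gene bodies and 8838 for promoters). Fold changes are log2 ratios of group means after a pseudocount of 0.0022 for gene bodies and 0.01735 for promoters, which understates changes of low genes. Pooled means allow no test, so genes at least 2-fold apart were counted.

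Library densities, written to 4 decimals, were solved from the 2 mean densities and the mean ratio; single solutions were found in 92.4% (DMSO), 96.6% (leflunomide) and 95.7% (A771726) of entries with a promoter value. Read numbers are densities over the value of 1 read, rounded, since reads crossing a window's edge give fractions. limma 3.58.1 (trend, robust) was run in R 4.3.3 on log2(density + 0.0022) of these libraries, with Benjamini-Hochberg adjustment over 4888 genes. The solving step and limma were tested on simulated data. Named genes were all 7 members, fixed genes of each list, list genes at least 2-fold apart, and the 5 most alike.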

Additional observations from a re-analysis of the deposited data

How the results depend on the processing

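No paired analysis was possible because the deposited columns are group means and the solved libraries carry no replicate letters. MIR17HG has identical entries, so no other host entry could be tried. The counts of microRNA genes whose gene body mean with A771726 was 2-fold or more below DMSO or leflunomide stayed at 6 under every pseudocount, filter and centring tried and without any 1 library. With leflunomide against DMSO the count of 0 became 3 without leflunomide library 1, where MIR20A had −1.13 and MIR19B1 −1.11. Without A771726 library 1 the median change of the microRNA to host quotient was −2.25 (range over left-out libraries −2.25 to −1.23), an alternative chosen after seeing the data. The count of promoter windows at least 2-fold higher with leflunomide was 0 with a pseudocount 5 times larger and 0 relative to the median gene, and ranged from 1 to 3 without single libraries, highest without DMSO library 2. The count at least 2-fold lower with leflunomide ranged from 0 to 1, and with A771726 the count higher from 0 to 1. The count lower with A771726 was 3 with the larger pseudocount and ranged from 2 (without A771726 library 2) to 5, with 3 without DMSO library 2. In limma the change of MIR18A with leflunomide was 0.17, of opposite sign, without DMSO library 1 and −0.43 without DMSO library 2, and no microRNA gene was called under the 6 alternatives (limma adjusted p from 0.866 to 0.9998, with unadjusted p = 0.0424 for MIR92A1 and MIR19B1 with the larger pseudocount); MIR19A could be tried with the larger pseudocount alone. In 4 of these alternatives 1 group has 1 library, which is assumed to vary like the others, and the centred and left-out fits used 3423 genes, so they say little of stability. The values of list genes without 1 library or without a pseudocount were also chosen after seeing the data. The cause of these shifts was not tested. Few reads limit the A771726 windows, at 3 to 9 gene body reads per library. The value of 1 read for a gene of 84 bases was 0.00518 and 0.00674 with A771726 and 0.00943 and 0.0112 in DMSO. Library depths and scaling are not given, and their part in the low values was not tested.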
